A study of Mus musculus with 3 samples.

Results

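The mouse MHC genes are the genes of the H2 complex, whose symbols start with H2-, together with 7 genes that those molecules depend on: B2m, Cd74, Ciita, Nlrc5, Tap1, Tap2 and Tapbp. They were found through the RefSeq accession of each array probe, and the rule itself uses symbols and no measured value. The rule covers 57 genes of the mouse reference table, of which 41 matched a probe and 16 did not. Of the 41, 39 had an unflagged probe on all 3 arrays, out of 20546 genes in all. They comprise 1 classical class I gene (H2-K1), 19 nonclassical class I genes, 2 class I pseudogenes (H2-K2 and H2-T10), 9 class II genes, the 7 accessory genes and H2-Ke6, an enzyme gene that only lies in the complex. The second classical gene, H2-D1, and the nonclassical H2-Q6 had their only spot flagged on at least 1 array and are given apart.

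Gene expression was measured on 3 single-colour arrays in female mice, 1 array for each group. The SiO2-3TF-3C spleen came from mice whose spleens received SiO2 and 3TF-3C, a treatment that the labels do not spell out. Normal liver was the positive control, and the SiO2 spleen, which received SiO2 alone, was the control for both. Both spleen groups thus carry SiO2 treatment and were taken on day 82. Per the series' design, 5 samples were pooled for each group, with cells and spleens named and the liver not named in that statement. The strain and age of the mice are not given in the sources used here. With 1 array a group no difference between groups could be tested, so a difference of at least 2-fold was used as a rule of size. The error printed after each difference is technical: it combines the scanner software's signal errors of both arrays and leaves out the spread between mice. It was about 0.20 for bright genes, whether a probe had 1 spot (B2m) or 10 (H2-K1), so it is not a precision measured gene by gene.

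MHC class I molecules consist of a heavy chain and beta-2 microglobulin and show peptides from inside the cell to CD8 T cells and natural killer cells. Nearly every nucleated cell carries the classical ones, while hepatocytes carry little of them at rest. Class II molecules show peptides from ingested proteins to CD4 T cells and are made mainly by B cells, dendritic cells and macrophages, which are abundant in the spleen. Nonclassical class I genes are less variable between individuals, and several have a narrow tissue range, such as H2-Q10, whose secreted product is made mainly by the mouse liver.

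The promoters of 5 genes are shown because the results turn on them: H2-Q10 and H2-T3, which differed most between the spleens, H2-K1 as the classical class I gene, and H2-Aa and H2-Eb1 as class II genes that differed unequally in liver. Each runs 5′ to 3′ from 250 bases before to 50 bases after the start given by RefSeq on GRCm38.p6, a later build than the mm9 named in the array headers. Capitals mark the longest run of letters that H2-Q10 and H2-T3 each share with H2-K1 on the same strand. H2-K1 has another start nearby, which is not shown.
H2-Q10, chr17:35469839-35470138, plus strand: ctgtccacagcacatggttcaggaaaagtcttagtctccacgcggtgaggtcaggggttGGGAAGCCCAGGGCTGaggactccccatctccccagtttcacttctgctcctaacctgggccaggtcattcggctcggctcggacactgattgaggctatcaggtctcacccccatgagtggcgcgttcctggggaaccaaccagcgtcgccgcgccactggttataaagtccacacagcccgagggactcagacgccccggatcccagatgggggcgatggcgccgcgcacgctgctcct
H2-T3, chr17:36190102-36190401, minus strand: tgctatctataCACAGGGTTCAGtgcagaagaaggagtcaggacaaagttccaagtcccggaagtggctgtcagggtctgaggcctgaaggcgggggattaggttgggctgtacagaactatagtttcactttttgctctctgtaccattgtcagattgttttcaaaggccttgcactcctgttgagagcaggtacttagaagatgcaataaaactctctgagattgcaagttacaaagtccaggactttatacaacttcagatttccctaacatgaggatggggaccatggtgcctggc
H2-K1, chr17:34000298-34000597, minus strand: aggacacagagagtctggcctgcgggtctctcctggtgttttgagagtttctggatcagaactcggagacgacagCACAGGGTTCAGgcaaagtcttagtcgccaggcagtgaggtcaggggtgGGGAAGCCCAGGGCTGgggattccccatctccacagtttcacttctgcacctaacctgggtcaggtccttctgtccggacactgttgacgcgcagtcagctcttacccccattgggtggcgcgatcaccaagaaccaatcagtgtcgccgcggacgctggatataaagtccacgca
H2-Aa, chr17:34287774-34288073, minus strand: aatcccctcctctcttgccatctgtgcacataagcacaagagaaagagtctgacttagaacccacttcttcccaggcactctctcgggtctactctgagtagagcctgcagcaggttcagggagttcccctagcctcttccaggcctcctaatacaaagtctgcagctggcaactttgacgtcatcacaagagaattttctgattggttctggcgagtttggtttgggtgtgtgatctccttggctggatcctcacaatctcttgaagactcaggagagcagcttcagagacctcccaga
H2-Eb1, chr17:34305617-34305916, plus strand: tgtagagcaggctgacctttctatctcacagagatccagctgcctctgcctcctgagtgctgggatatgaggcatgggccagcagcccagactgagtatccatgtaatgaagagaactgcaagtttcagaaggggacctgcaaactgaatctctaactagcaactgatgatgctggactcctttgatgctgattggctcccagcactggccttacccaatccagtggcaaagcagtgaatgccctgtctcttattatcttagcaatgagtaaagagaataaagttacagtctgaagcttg

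RefSeq promoters were available for 35 of the 57 genes. On the same strand, the longest run that H2-Q10 shared with H2-K1 was 16 bases, and H2-T3 shared 12 with it. H2-Aa and H2-Eb1 shared at most 8 with H2-K1 on that strand. On the opposite strand, H2-Aa shared 12 with H2-K1, H2-Q10 shared 11, H2-T3 shared 10 and H2-Eb1 shared 8. H2-Q10 and H2-T3 shared 10 with each other, and H2-T3 and H2-Aa shared 9. The letters G and C made up 62.3% of the H2-Q10 window, 46.7% of H2-T3, 57.7% of H2-K1, 50.7% of H2-Aa and 48.0% of H2-Eb1. These are descriptions of the letters, and no search for binding sites was made.

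The tissue labels were checked against marker genes before the MHC genes were read. A probe's level is its log2 signal minus its array's 75th percentile, and summed levels add the linear values over a list. The brightest probes weigh most in such sums, which are read between arrays and not between lists. All 9 hepatocyte markers were at least 2-fold higher both in the SiO2-3TF-3C spleen and in normal liver than in SiO2 spleen, with summed levels of 247 in the SiO2-3TF-3C spleen, 585 in normal liver and 1.20 in SiO2 spleen, where Ttr and Apoa1 were not well above background. The array labelled normal liver also gave signal for lymphoid and splenic markers, on an array where 77.2% of all noncontrol spots were well above background. All 6 measured spleen stroma markers, including Tlx1, Nkx2-5 and Nkx2-3, were well above background there, although each was at least 2-fold lower than in SiO2 spleen, with a median difference of -1.44. Summed B cell markers stood at 94.4 in the SiO2-3TF-3C spleen, 55.9 in normal liver and 137 in SiO2 spleen. Summed T cell markers stood at 30.4 in the SiO2-3TF-3C spleen, 14.7 in normal liver and 45.8 in SiO2 spleen. Summed dendritic cell markers stood at 52.2 in the SiO2-3TF-3C spleen, 44.9 in normal liver and 68.0 in SiO2 spleen. Every comparison with liver rests on that single array. The 75th percentile corresponded to intensities of 515 in the SiO2-3TF-3C spleen, 390 in normal liver and 569 in SiO2 spleen, and no spot was marked as saturated.

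The nonclassical class I genes H2-T3, H2-Q10 and H2-Q1 stood higher in both the SiO2-3TF-3C spleen and normal liver than in SiO2 spleen, and class II genes stood lower in normal liver. Between the SiO2-3TF-3C spleen and SiO2 spleen, 37 MHC genes were measured on at least 1 of the arrays. Of these, 4 were at least 2-fold higher and 1 at least 2-fold lower, against 5.22% and 1.39% of all 17685 genes measured. Between normal liver and SiO2 spleen, 3 of 37 were higher and 10 lower, against 15.1% and 16.7% of 17658 genes. Between the SiO2-3TF-3C spleen and normal liver, 3 of 38 were higher and 3 lower, against 10.5% and 15.5% of 17646 genes. The number higher became 10 of 38 under quantile normalization and 6 of 25 in the authors' deposited values, which cover fewer genes. The matching shares of all genes were 13.2% and 13.4%. At 1.5-fold, 4 were higher and 4 lower in the SiO2-3TF-3C spleen minus SiO2 spleen, against 8.62% and 9.34% of all genes. In normal liver minus SiO2 spleen 6 were higher and 14 lower at 1.5-fold, against 23.5% and 30.7%, and in the SiO2-3TF-3C spleen minus normal liver 15 were higher and 7 lower, against 22.8% and 26.8%. The first 2 comparisons share the SiO2 spleen array, so their values stand side by side and are not independent of each other. The median gene differed by -0.16 between the SiO2-3TF-3C spleen and SiO2 spleen and by -0.15 between normal liver and SiO2 spleen. In whole tissue, fewer cells of a type and less RNA per cell cannot be told apart.

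**Figure D1:**
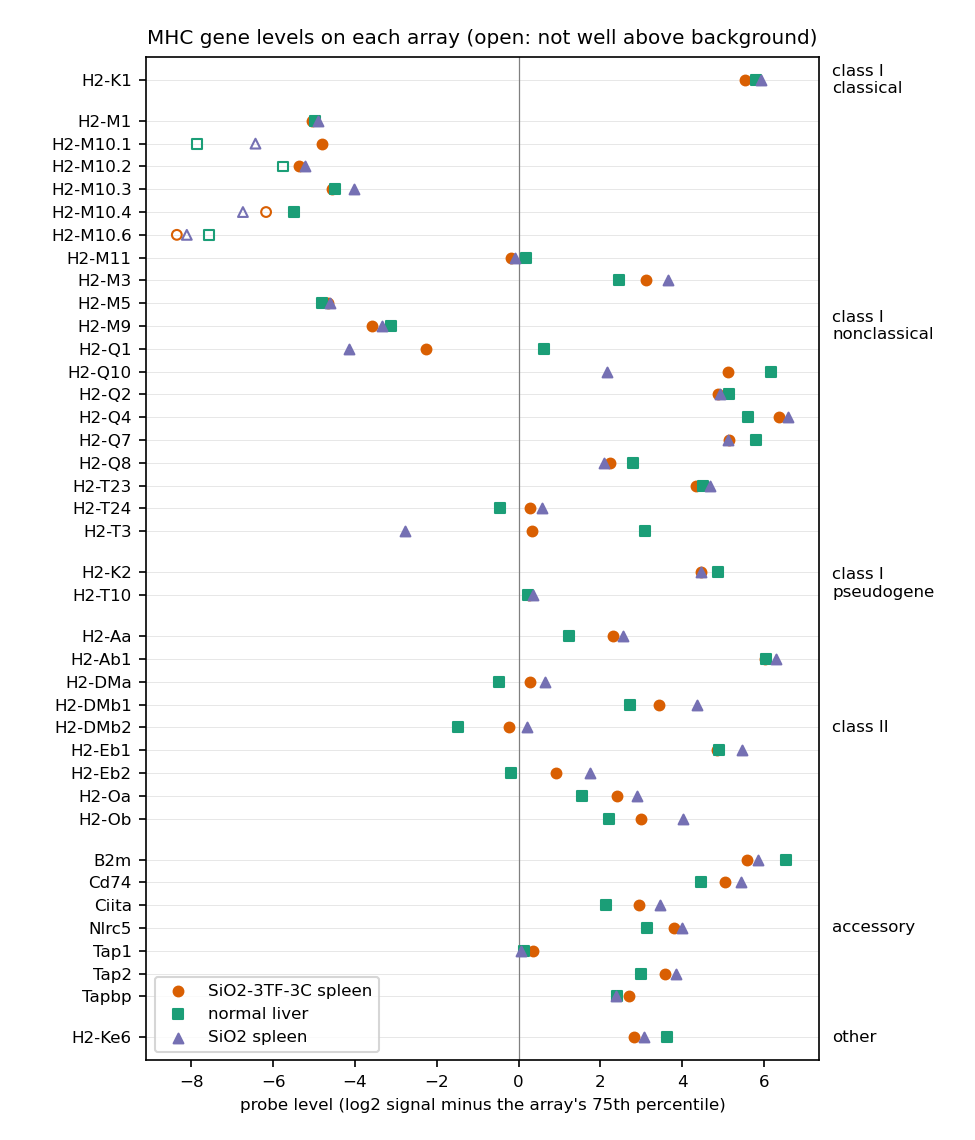
Level of each of the 39 MHC genes on the SiO2-3TF-3C spleen (circles), normal liver (squares) and SiO2 spleen (triangles) arrays, as log2 signal minus the array's 75th percentile, by class; open symbols were not well above background. H2-T3, H2-Q10 and H2-Q1 are lowest in SiO2 spleen, whereas the class II genes are highest there. Levels are read within a gene, since different probes cannot be compared.

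H2-T3 encodes the thymus leukemia antigen, which in mice is found on intestinal epithelium and binds CD8 alpha homodimers. Its level was 0.32 in the SiO2-3TF-3C spleen, 3.10 in normal liver and -2.78 in SiO2 spleen. All 3 values lay far apart, with the SiO2-3TF-3C spleen between the others. The difference was 3.10 ± 0.21 between the SiO2-3TF-3C spleen and SiO2 spleen, or 8.59-fold, and 5.88 ± 0.21 between normal liver and SiO2 spleen, or 58.7-fold. Between the SiO2-3TF-3C spleen and normal liver it was -2.77 ± 0.20. With normexp background correction the difference from SiO2 spleen was 2.39 for the SiO2-3TF-3C spleen and 5.01 for normal liver. H2-T3 has 1 probe, which is not among the probes of the authors' deposited table used here.

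H2-Q10 encodes a soluble class I heavy chain that the mouse liver releases into serum. Its brighter probe read 5.11 in the SiO2-3TF-3C spleen, 6.18 in normal liver and 2.16 in SiO2 spleen. The difference was 2.95 ± 0.20 (7.74-fold) for the SiO2-3TF-3C spleen and 4.02 ± 0.20 (16.2-fold) for normal liver, each minus SiO2 spleen. The second probe of H2-Q10 gave another size. It read 1.53 in the SiO2-3TF-3C spleen, 4.20 in normal liver and 0.87 in SiO2 spleen, so that the difference was 0.66 ± 0.20 for the SiO2-3TF-3C spleen and 3.33 ± 0.20 for normal liver. Both probes put normal liver highest and SiO2 spleen lowest, but only the brighter one passed 2-fold in the SiO2-3TF-3C spleen. The authors' deposited table holds the second probe alone, with differences of 0.74 for the SiO2-3TF-3C spleen and 3.09 for normal liver. The mean of both probes gave 1.81 for the SiO2-3TF-3C spleen minus SiO2 spleen.

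H2-Q1, a gene of the same Q region, read -2.27 in the SiO2-3TF-3C spleen, 0.63 in normal liver and -4.15 in SiO2 spleen. The arrays stood in the same order as for H2-T3 and H2-Q10. The difference was 1.88 ± 0.22 (3.68-fold) for the SiO2-3TF-3C spleen and 4.78 ± 0.22 (27.4-fold) for normal liver, each minus SiO2 spleen. Between the SiO2-3TF-3C spleen and normal liver it was -2.90 ± 0.20. Normexp correction lowered the value for the SiO2-3TF-3C spleen to 0.94, short of 2-fold, while the authors' deposited table gave 1.87. The summed hepatocyte markers, at 247 in the SiO2-3TF-3C spleen, 585 in normal liver and 1.20 in SiO2 spleen, stood in the same order as these 3 genes. So did the summed Kupffer cell markers (29.0, 42.1 and 28.1) and endothelial markers (26.4, 43.9 and 25.7), while the other marker lists did not. The part of these cell types in the result was not tested. H2-T3, H2-Q10 by its brighter probe, and H2-Q1 exceeded 98.8%, 98.7% and 97.8% of the 16783 genes measured on both spleen arrays. In normal liver minus SiO2 spleen they exceeded 98.5%, 97.2% and 97.9% of 16147 genes. The 3 genes were singled out for the size of their differences, so high ranks follow from that choice.

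**Figure D2:**
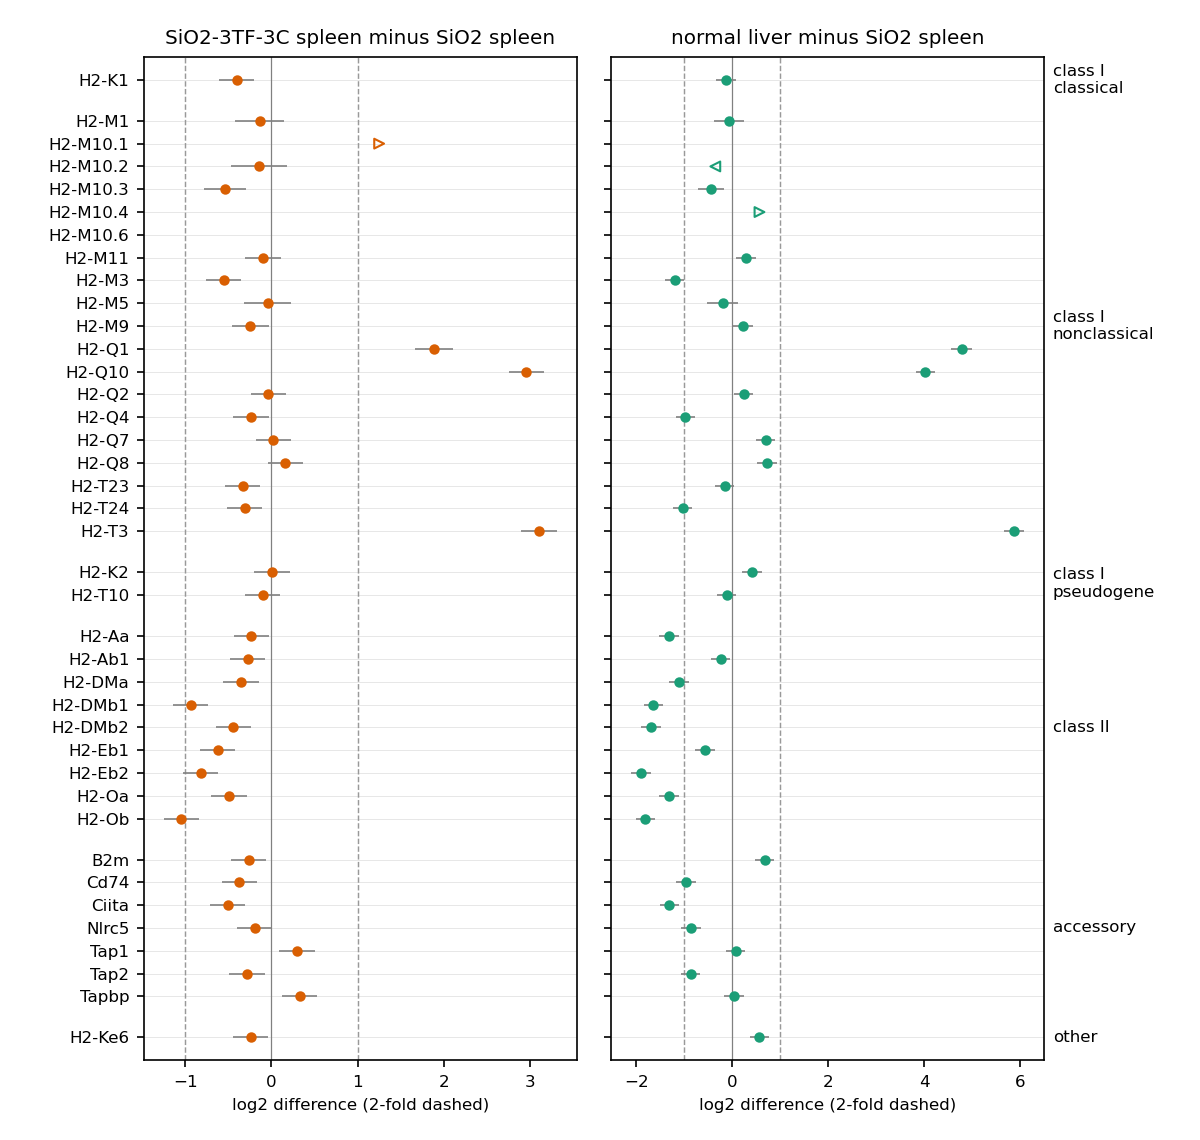
Log2 difference of each MHC gene for the SiO2-3TF-3C spleen minus SiO2 spleen (left) and normal liver minus SiO2 spleen (right); bars are technical errors, open arrowheads are bounds that point the way the true difference may extend, and dashed lines mark 2-fold. H2-T3, H2-Q10 and H2-Q1 stand to the right in both panels, and the 9 class II genes lie left of 0 in both.

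The other Q and T region genes differed little between the spleens. H2-Q7, which encodes Qa-2, a class I molecule held by a lipid anchor, read 5.14 in the SiO2-3TF-3C spleen, 5.81 in normal liver and 5.12 in SiO2 spleen. H2-Q8, of the same subgroup, read 2.24 in the SiO2-3TF-3C spleen, 2.81 in normal liver and 2.08 in SiO2 spleen. Both were higher in normal liver than in either spleen, by 0.69 ± 0.20 and 0.72 ± 0.20 over SiO2 spleen, short of 2-fold. H2-Q4 read 6.36 in the SiO2-3TF-3C spleen, 5.61 in normal liver and 6.60 in SiO2 spleen, with a difference of -0.98 ± 0.20 for normal liver minus SiO2 spleen. That value lay at the threshold and passed it under 4 other settings, with differences as low as -1.15. H2-Q2 had probes that disagreed in liver: normal liver minus SiO2 spleen was 0.23 ± 0.20 by the brighter and 1.43 ± 0.20 by the other. H2-Q6 gave -0.28 ± 0.20 for the SiO2-3TF-3C spleen and -0.06 ± 0.20 for normal liver, each minus SiO2 spleen, with its flagged spots kept.

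H2-T23 encodes Qa-1, which in mice shows leader peptides of other class I molecules to natural killer cell receptors. It read 4.35 in the SiO2-3TF-3C spleen, 4.51 in normal liver and 4.68 in SiO2 spleen, a range within 0.33. H2-T24 read 0.27 in the SiO2-3TF-3C spleen, -0.46 in normal liver and 0.58 in SiO2 spleen, and its difference of -1.04 ± 0.20 for normal liver minus SiO2 spleen came just past 2-fold. Normexp correction moved it to -0.93. The second probe of H2-T24 gave -1.02 ± 0.28.

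**Figure D3:**
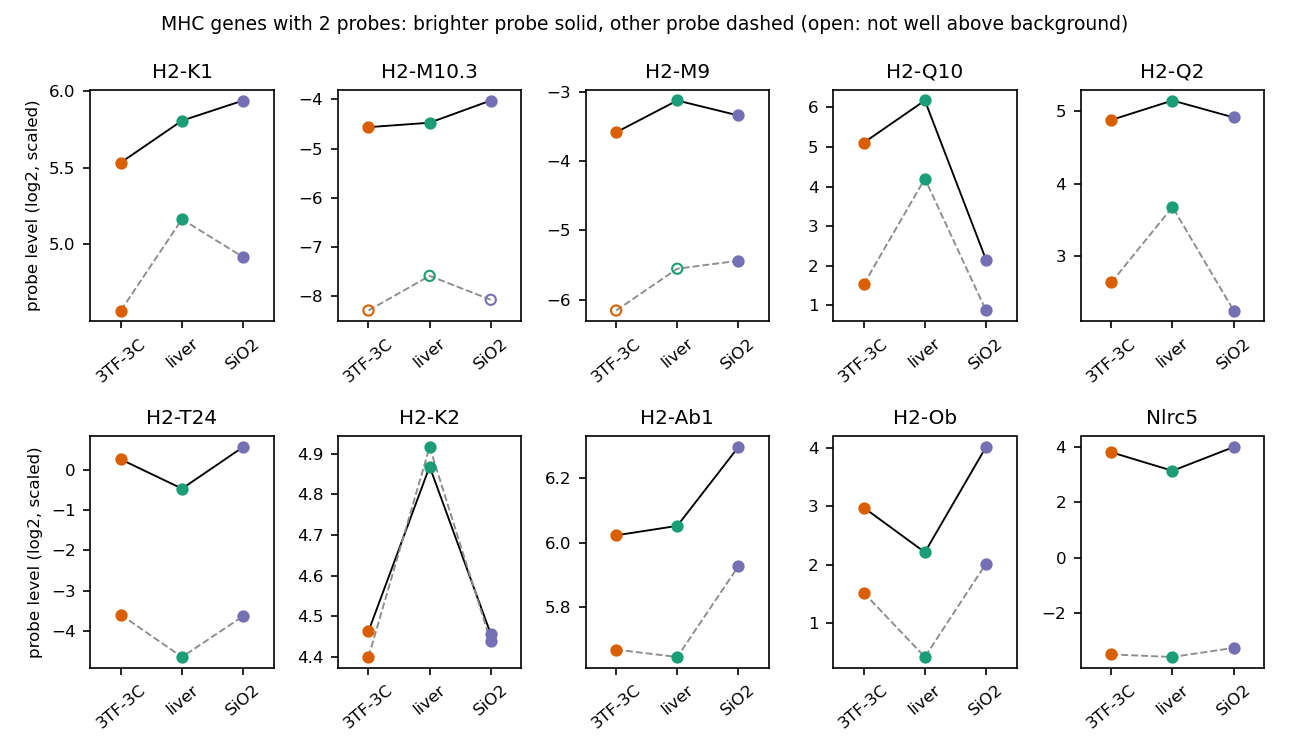
Levels of the 10 MHC genes with 2 probes, each panel with its own log2 axis, for the SiO2-3TF-3C spleen, normal liver and SiO2 spleen from left to right; the solid line is the brighter probe, the dashed line the other, and open circles were not well above background. The probes of H2-Q10 both peak in normal liver but place the SiO2-3TF-3C spleen differently, while those of H2-K2 both peak in normal liver and those of H2-Ob are both lowest there.

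H2-M3, which in mice shows formylated peptides of bacteria, read 3.11 in the SiO2-3TF-3C spleen, 2.46 in normal liver and 3.66 in SiO2 spleen. Normal liver was lowest, by -1.20 ± 0.20 against SiO2 spleen, and the SiO2-3TF-3C spleen differed from SiO2 spleen by -0.55 ± 0.20. The H2-M genes known in mice from the vomeronasal organ (H2-M1, H2-M9, H2-M11 and the H2-M10 genes) were mostly dim. H2-M11 was the exception, at -0.19 in the SiO2-3TF-3C spleen, 0.19 in normal liver and -0.09 in SiO2 spleen. H2-M1, H2-M5, H2-M9 and H2-M10.3 were well above background on all 3 arrays, and each of their differences from SiO2 spleen lay between -0.54 and 0.22. H2-M10.1 was well above background in the SiO2-3TF-3C spleen alone, at -4.79, which made it at least 2.38-fold higher than in SiO2 spleen. This level is close to the lowest that any probe reached well above background (-6.20 in the SiO2-3TF-3C spleen and -6.04 in SiO2 spleen), and normexp correction left a difference of 0.40. H2-M10.2 was not well above background in normal liver, H2-M10.4 was so in normal liver alone, and neither passed 2-fold as a bound. H2-M10.6 was not well above background on any array.

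Over the 16 nonclassical genes measured on both spleen arrays, the median difference was -0.12 for the SiO2-3TF-3C spleen minus SiO2 spleen, near the -0.16 of all genes. It was 0.11 in the authors' deposited values, which hold fewer of these genes and lack H2-T3. Over the 15 measured in both normal liver and SiO2 spleen it was 0.22. For the SiO2-3TF-3C spleen minus normal liver it was -0.27 over 15 genes, and it turned to 0.015 under quantile normalization. Class I genes share long stretches of sequence, and the letters of the probes were not used here. How far a class I probe also reads transcripts of its relatives was not checked, and the values of single class I genes are uncertain to that extent.

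H2-K1, the classical class I heavy chain gene, differed by less than 2-fold between the arrays. Its main probe is printed in 10 spots, which gives a view of the technical spread. The level was 5.53 ± 0.08 over 9 unflagged spots in the SiO2-3TF-3C spleen, 5.81 ± 0.07 over 5 in normal liver and 5.94 ± 0.10 over 10 in SiO2 spleen (SD over spots of 1 array). The spots of the SiO2-3TF-3C spleen, up to 5.63, lay below all those of SiO2 spleen, from 5.78, whereas those of normal liver overlapped SiO2 spleen. The difference was -0.40 ± 0.20 for the SiO2-3TF-3C spleen and -0.13 ± 0.20 for normal liver, each minus SiO2 spleen. The second probe gave -0.35 ± 0.20 for the SiO2-3TF-3C spleen but 0.25 ± 0.20 for normal liver, so the direction in liver depends on the probe. H2-D1, the other classical gene, read 5.58 in the SiO2-3TF-3C spleen and 5.33 in SiO2 spleen, a difference of 0.25 ± 0.20, and its flagged liver spot read 5.45. By these values the classical genes lay on opposite sides of 0 between the spleens, each within 2-fold. The pseudogenes H2-K2 and H2-T10 differed by 0.01 ± 0.20 and -0.10 ± 0.20 for the SiO2-3TF-3C spleen and by 0.41 ± 0.20 and -0.12 ± 0.20 for normal liver, each minus SiO2 spleen.

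**Figure D4:**
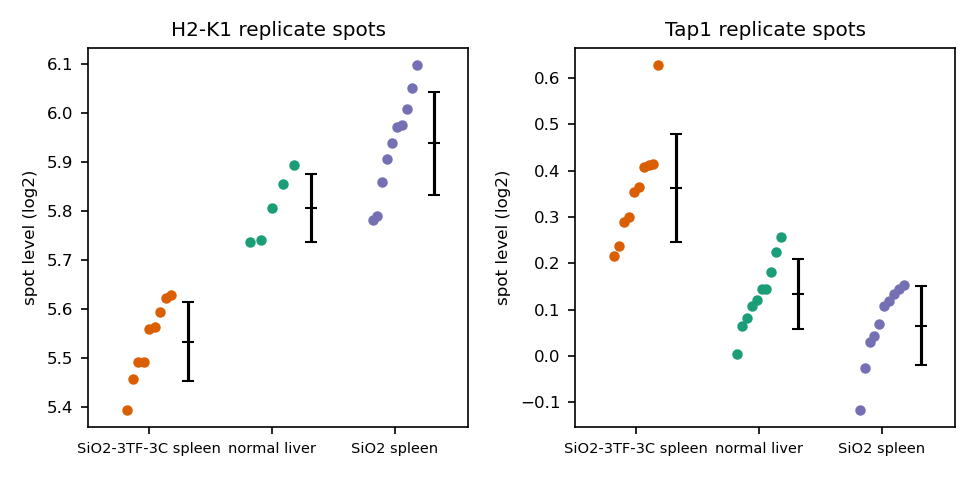
Levels of the single spots of the H2-K1 and Tap1 probes on the SiO2-3TF-3C spleen, normal liver and SiO2 spleen arrays (log2, scaled), with the mean and SD over spots beside them; spots are drawn in order of their value. For H2-K1 the SiO2-3TF-3C spleen spots lie below the SiO2 spleen spots, and for Tap1 they lie above them. The spots of 1 array share the same RNA, so the spread is technical.

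Class II genes were lower in normal liver than in SiO2 spleen, most of them by over 2-fold, and the SiO2-3TF-3C spleen lay between for 7 of the 9. All 9 measured class II genes were well above background on every array, as were 16087 of all 20546 genes. H2-Aa and H2-Ab1 encode the alpha and beta chains of I-A. H2-Aa read 2.31 in the SiO2-3TF-3C spleen, 1.23 in normal liver and 2.55 in SiO2 spleen. H2-Ab1 read 6.02 in the SiO2-3TF-3C spleen, 6.05 in normal liver and 6.30 in SiO2 spleen. The 2 chains of I-A thus differed unequally in liver: normal liver minus SiO2 spleen was -1.32 ± 0.20 for H2-Aa and -0.24 ± 0.20 for H2-Ab1. The second probe of H2-Ab1 gave -0.28 ± 0.20. H2-Eb1, the beta chain of I-E, read 4.84 in the SiO2-3TF-3C spleen, 4.89 in normal liver and 5.46 in SiO2 spleen. H2-Eb2 read 0.92 in the SiO2-3TF-3C spleen, -0.17 in normal liver and 1.74 in SiO2 spleen. The difference for normal liver minus SiO2 spleen was -0.57 ± 0.20 for H2-Eb1 and -1.91 ± 0.20 for H2-Eb2. H2-Ab1 and H2-Eb1 were the class II genes that stayed within 2-fold in liver.

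The genes of peptide loading showed the same order of arrays. H2-DMa, H2-DMb1 and H2-DMb2 encode H2-DM, which exchanges the peptides of class II molecules. H2-DMb1 read 3.43 in the SiO2-3TF-3C spleen, 2.72 in normal liver and 4.37 in SiO2 spleen. Its difference was -0.93 ± 0.20 for the SiO2-3TF-3C spleen and -1.65 ± 0.20 for normal liver, each minus SiO2 spleen. H2-DMa read 0.29 in the SiO2-3TF-3C spleen, -0.47 in normal liver and 0.64 in SiO2 spleen. H2-DMb2 read -0.23 in the SiO2-3TF-3C spleen, -1.47 in normal liver and 0.22 in SiO2 spleen. For normal liver minus SiO2 spleen, H2-DMa differed by -1.12 ± 0.20, which normexp correction moved to -0.99, and H2-DMb2 by -1.69 ± 0.20. H2-Oa and H2-Ob encode H2-O, an inhibitor of H2-DM that B cells make. H2-Ob read 2.98 in the SiO2-3TF-3C spleen, 2.21 in normal liver and 4.03 in SiO2 spleen. It was the 1 MHC gene at least 2-fold lower between the spleens, at -1.04 ± 0.20 or 2.06-fold. It fell short of 2-fold under quantile normalization (-0.90), in the authors' deposited values (-0.89) and as the mean of its probes (-0.77), and its second probe alone gave -0.50 ± 0.20. H2-Oa read 2.40 in the SiO2-3TF-3C spleen, 1.56 in normal liver and 2.89 in SiO2 spleen, with -0.49 ± 0.20 for the SiO2-3TF-3C spleen and -1.33 ± 0.20 for normal liver, each minus SiO2 spleen.

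All 9 class II genes lay below 0 in the SiO2-3TF-3C spleen minus SiO2 spleen, from -1.04 to -0.23 with a median of -0.49, while 67.1% of all genes measured on both arrays also lay below 0. At 1.5-fold, 4 of the 9 were lower (H2-Ob, H2-DMb1, H2-Eb2 and H2-Eb1), against 9.34% of all genes. In normal liver minus SiO2 spleen the 9 ranged from -1.91 to -0.24 with a median of -1.33, and 7 were at least 2-fold lower, while 16.7% of all genes were at least 2-fold lower and 56.4% lay below 0. For the SiO2-3TF-3C spleen minus normal liver the median was 0.77, with H2-DMb2 (1.25 ± 0.20), H2-Eb2 (1.09 ± 0.20) and H2-Aa (1.09 ± 0.20) at least 2-fold higher, whereas H2-Ab1 and H2-Eb1 differed by -0.03 ± 0.20 and -0.05 ± 0.20, and by 0.23 and 0.25 under quantile normalization. Markers of cells that carry class II are given beside these values. The median of the 8 B cell markers was -0.57 for the SiO2-3TF-3C spleen, with 0 of 8 at least 2-fold lower, and -1.18 for normal liver, with 5 of 8 lower, each minus SiO2 spleen. Over all genes, 1.39% and 16.7% were at least 2-fold lower in these 2 comparisons. The median of the 8 dendritic cell markers was -0.40 for the SiO2-3TF-3C spleen and -1.02 for normal liver, with 4 of 8 lower in normal liver. For the 5 measured macrophage and monocyte markers the median was -0.11 for the SiO2-3TF-3C spleen, no lower than the -0.16 of all genes, and -0.52 for normal liver. The 5 markers of Kupffer cells, the resident macrophages of the liver, had medians above 0. Their median was 0.24 for the SiO2-3TF-3C spleen, where 2 of 5 passed 2-fold upward, and 0.92 for normal liver, with 2 higher and 1 lower, each minus SiO2 spleen. Over all genes, 5.22% were at least 2-fold higher between the spleens, and 15.1% were higher and 16.7% lower in normal liver. All of these markers were well above background on every array, as were 16087 of all 20546 genes, and their part in the class II result was not tested.

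**Figure D5:**
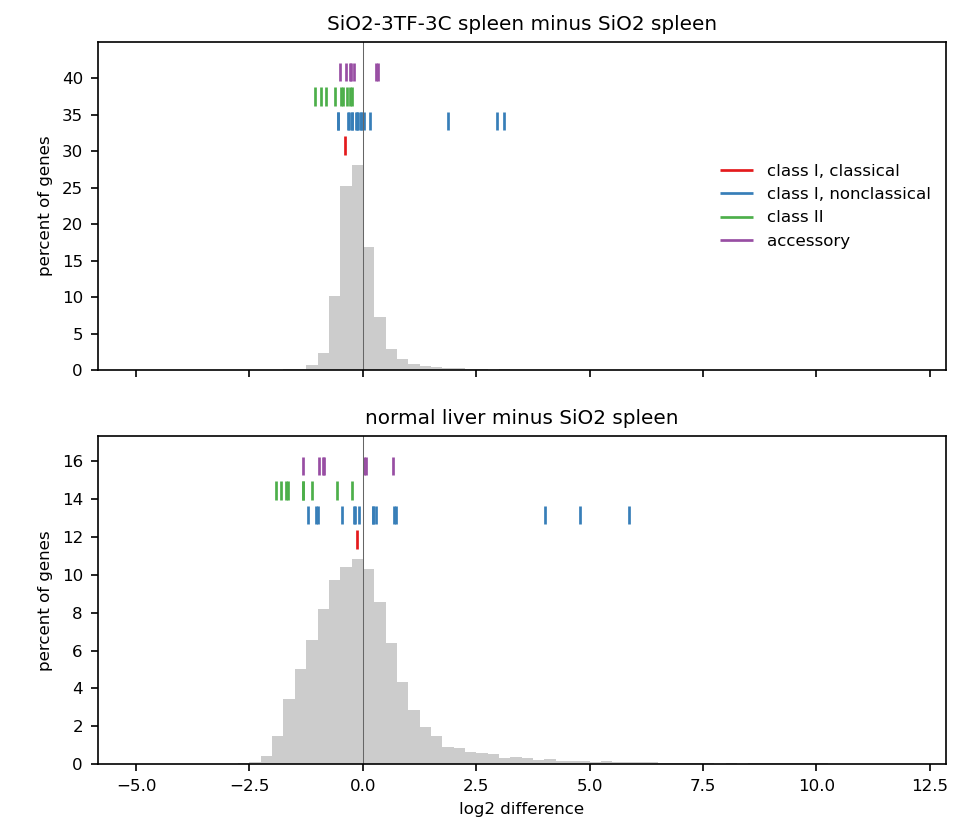
Distribution over all genes (grey bars, percent of genes per 0.25 log2) of the difference for the SiO2-3TF-3C spleen minus SiO2 spleen (top) and normal liver minus SiO2 spleen (bottom), for genes measured on both arrays, with coloured ticks for the MHC genes by class. Class II ticks lie left of 0 in both panels, and 3 nonclassical class I ticks lie far to the right.

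Of the 7 accessory genes, 1 passed 2-fold, being lower in normal liver than in SiO2 spleen, against 16.7% of all genes. This was Ciita, and the values of Cd74, Tap2, Nlrc5 and B2m for that comparison lay within 2-fold. Ciita, the master coactivator of class II transcription, read 2.95 in the SiO2-3TF-3C spleen, 2.14 in normal liver and 3.45 in SiO2 spleen. Its difference was -0.51 ± 0.20 for the SiO2-3TF-3C spleen and -1.31 ± 0.20 for normal liver, each minus SiO2 spleen. Cd74, Nlrc5 and Tap2 passed 2-fold in normal liver under some other settings. Cd74, the invariant chain that guards the class II groove, read 5.05 in the SiO2-3TF-3C spleen, 4.46 in normal liver and 5.43 in SiO2 spleen, with -0.37 ± 0.20 for the SiO2-3TF-3C spleen. Its -0.96 ± 0.20 for normal liver minus SiO2 spleen passed 2-fold under 4 other settings, reaching -1.11. B2m, the light chain of every class I molecule, read 5.59 in the SiO2-3TF-3C spleen, 6.53 in normal liver and 5.86 in SiO2 spleen. Its difference for normal liver minus SiO2 spleen, 0.67 ± 0.20, was the highest of the 7.

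Nlrc5, the coactivator of class I transcription, read 3.80 in the SiO2-3TF-3C spleen, 3.13 in normal liver and 3.99 in SiO2 spleen, and its difference for normal liver minus SiO2 spleen was -0.86 ± 0.20. The second probe gave -0.33 ± 0.23. Tap1 and Tap2 form the transporter that brings peptides to class I molecules. Tap2 read 3.57 in the SiO2-3TF-3C spleen, 2.98 in normal liver and 3.85 in SiO2 spleen, with -0.87 ± 0.20 for normal liver minus SiO2 spleen. Tap1, printed in 10 spots, averaged 0.36 ± 0.12 in the SiO2-3TF-3C spleen, 0.13 ± 0.08 in normal liver and 0.07 ± 0.09 in SiO2 spleen (SD over spots). Every Tap1 spot of the SiO2-3TF-3C spleen, from 0.22, lay above those of SiO2 spleen, up to 0.15, though the difference of 0.30 ± 0.20 is small. Tapbp, which tethers class I molecules to that transporter, read 2.70 in the SiO2-3TF-3C spleen, 2.41 in normal liver and 2.37 in SiO2 spleen. The median of the 7 accessory genes was -0.26 for the SiO2-3TF-3C spleen minus SiO2 spleen. For normal liver minus SiO2 spleen it was -0.86, and -0.59 with the mean over probes. The authors' deposited values lack Cd74 and Ciita. Over the accessory genes that they hold, the medians were 0.025 and -0.090 in that order, so they do not cover the same genes. H2-Ke6, an enzyme of steroid and fatty acid metabolism, read 2.83 in the SiO2-3TF-3C spleen, 3.63 in normal liver and 3.07 in SiO2 spleen.

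The other genes of the pathway were taken from 5 lists. Of 12 genes of class I peptide supply and loading, 1 was at least 2-fold higher in both the SiO2-3TF-3C spleen and normal liver than in SiO2 spleen, against 5.22% and 15.1% of all genes. This was Calr, a chaperone of class I folding, with levels of 3.18 in the SiO2-3TF-3C spleen, 4.21 in normal liver and 1.59 in SiO2 spleen. The immunoproteasome genes Psmb8 and Psmb9 differed by 0.02 and -0.06 for the SiO2-3TF-3C spleen and by -0.68 and -0.88 for normal liver, each minus SiO2 spleen. Of 9 genes of class II processing, 0 passed 2-fold between the spleens, where 5.22% of all genes were higher and 1.39% lower. In normal liver 3 of the 9 were higher and 2 lower than in SiO2 spleen, against 15.1% and 16.7% of all genes. The higher ones were the protease Ctsl (1.65), Sppl2a (1.37), which cleaves the remnant of the invariant chain, and Marchf8 (1.06), a ubiquitin ligase. The lower ones were Marchf1 (-1.57), a ubiquitin ligase that removes class II from the surface, and Ifi30 (-1.14), a reductase that opens disulphide bonds of antigens.

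Of 13 transcription factors of MHC genes, 0 passed 2-fold between the spleens, where 5.22% of all genes were higher and 1.39% lower. In normal liver 3 of the 13 were lower than in SiO2 spleen, against 16.7% of all genes. These were Creb1 (-2.55), Nfya (-1.66) and Irf8 (-1.41). The class II factor Rfx5 differed by -0.19 for the SiO2-3TF-3C spleen and -0.61 for normal liver. Of 12 genes of the interferon gamma axis, 1 was at least 2-fold higher in both, against 5.22% and 15.1% of all genes. This was the GTPase gene Iigp1, at 2.17 in the SiO2-3TF-3C spleen, 3.44 in normal liver and 0.96 in SiO2 spleen. In normal liver, Jak2 (-2.01), Socs1 (-1.42) and Ifng itself (-1.40) were lower than in SiO2 spleen, which is 3 of the 12 against 16.7% of all genes. Of the 10 receptors of MHC molecules, 9 were measured. None of the 9 passed 2-fold in the SiO2-3TF-3C spleen minus SiO2 spleen (0 higher and 0 lower, against 5.22% and 1.39% of all genes). The median there was -0.49. In normal liver 7 of the 9 were lower than in SiO2 spleen, against 16.7% of all genes, among them Cd8a (-1.79), Lag3 (-1.64) and Klrd1 (-1.52), whereas Cd4, the coreceptor for class II, differed by -0.18. Summed T cell markers, at 30.4 in the SiO2-3TF-3C spleen, 14.7 in normal liver and 45.8 in SiO2 spleen, stood in the same order of arrays as the receptors. So did the natural killer cell sums (4.24, 2.69 and 6.78) and those of B cells, dendritic cells, macrophages and monocytes, fibroblasts and spleen stroma. The hepatocyte, Kupffer cell, endothelial and erythroid sums did not. The part of these cell types was not tested.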

How the data were processed

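The files hold the linear fluorescence intensity of each spot, which per the file headers was extracted with Feature Extraction 11.0.1.1 (9.1 per the submitters' processing notes) from array design 026655, after background subtraction. The authors' deposited series table holds log2 values of 26049 probes, with a normalization not stated in the sources used here; its column medians are 5.91 for each group. Per the labels' protocols, globin messages were depleted and RNA was amplified linearly with Cy3.

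Controls were dropped, as were spots that the scanner software marked non-uniform or outlying (283, 469 and 182 of 43020 in the SiO2-3TF-3C spleen, normal liver and SiO2 spleen). Spots of a probe were averaged on the log2 scale, and each array's 75th percentile was subtracted. The arrays shared 1 slide and scan. Of 39112 probes, 27038 (69.1%) took a symbol through the RefSeq table on GRCm38.p6, used for names alone, and a gene was read from its brightest probe. The scanner software's background test decided whether a gene counted as measured. Where only 1 side was, the difference is a bound against whichever is higher, the dim signal itself or the array's faintest accepted signal, written "at least". Spots number 1 per array for most probes, which limits the precision. No motif was searched in the promoters, which came from RefSeq. The subtraction was tested on simulated data.

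All MHC genes with a probe may be named, and genes of the lists where they passed 2-fold or stand for the list. Rfx5, Psmb8, Psmb9, Cd4 and the genes of the other observations were named outside that rule, after their values were seen. The members and lists were chosen with earlier results of these data known. The alternatives were normexp (offset 50, on median spot signals, since mean signals were not used here), quantile normalization, scaling by 11 housekeeping genes or by the median, the deposited values, the mean over probes, a stricter filter on dim genes and none, a 1.5-fold threshold and, added after the data were seen, keeping flagged spots. R 4.3.3 with limma 3.58.1, Python 3.11.15 and pandas 2.3.3 were used.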

Additional observations from a re-analysis of the deposited data

How the results depend on the processing

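Of 168 recomputed counts and class medians, 143 kept their size and 25 moved, and 0 of all the values past 2-fold changed sign. For the SiO2-3TF-3C spleen minus SiO2 spleen, the count of MHC genes at least 2-fold higher (4) became 2 with normexp. It was 2 in the deposited values, which measured 24 MHC genes there. The count lower (1) became 2 with normexp, 0 under quantile normalization, 0 in the deposited values, 0 with the mean over probes and 4 at 1.5-fold. Over all genes, the share higher moved from 5.22% to 3.34% with normexp and to 5.36% in the deposited values. The share lower moved from 1.39% to 0.226% with normexp and to 1.18% under quantile normalization. It was 1.22% in the deposited values, 1.24% with the mean over probes and 9.34% at 1.5-fold. For normal liver minus SiO2 spleen, the count higher (3) became 6 at 1.5-fold, while the share of all genes went from 15.1% to 23.5%. For the SiO2-3TF-3C spleen minus normal liver, the count higher (3) became 10 under quantile normalization, 6 of 25 in the deposited values and 15 at 1.5-fold. The count lower (3) became 7 at 1.5-fold. The share of all genes higher moved from 10.5% to 13.2%, 13.4% and 22.8% in that order, and the share lower from 15.5% to 26.8%. Quantile normalization moved the medians of that comparison to 0.93 for accessory, 1.02 for class II, -0.017 for classical and 0.015 for nonclassical class I genes. The deposited values, which cover 24 or 25 of the genes, moved the class II median there to 1.03 and the classical one to 0.011, the accessory medians to 0.025 (SiO2-3TF-3C spleen) and -0.090 (normal liver), each minus SiO2 spleen, and the nonclassical one to 0.11 between the spleens. The mean over probes moved the accessory medians to 0.38 for the SiO2-3TF-3C spleen minus normal liver and to -0.59 for normal liver minus SiO2 spleen, and turned the classical median there to 0.06. Keeping flagged spots, which adds H2-D1 to H2-K1, moved the classical median to -0.077 for the SiO2-3TF-3C spleen minus SiO2 spleen and to -0.036 against normal liver. The deposited values lack H2-T3, the brighter probe of H2-Q10, Cd74, Ciita, H2-Ab1, H2-Eb1, H2-Eb2 and H2-DMb1, among others. Their counts and medians thus cover a different set of genes from the main values. Other than these constructions, the cause was not tested. The class II medians kept their sign in all 3 comparisons under each of these settings, from -0.60 to -0.39, from -1.48 to -1.33 and from 0.77 to 1.03. Against all genes, scaling to housekeeping genes shifted the median gene from -0.15 to -0.30 in normal liver minus SiO2 spleen, and quantile normalization shifted it from -0.05 to 0.07 in the SiO2-3TF-3C spleen minus normal liver. No paired analysis was possible because each group has 1 array. Pooled RNA on 1 array a group gives no spread between mice, and dim probes such as H2-Q1 depend on the background correction.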

Other observations

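Class I-like genes outside the H2 complex were read from a list of 13 chosen after values had been seen, of which 12 had a probe and 10 were measured on all arrays. Azgp1, which encodes a soluble class I-like glycoprotein, read 2.49 in the SiO2-3TF-3C spleen, 5.56 in normal liver and -3.91 in SiO2 spleen. Its difference was 6.40 ± 0.22 for the SiO2-3TF-3C spleen and 9.46 ± 0.22 for normal liver, each minus SiO2 spleen. Raet1e, a ligand of the activating receptor NKG2D in mice, read -2.30 in the SiO2-3TF-3C spleen, 0.89 in normal liver and -3.92 in SiO2 spleen, with 1.62 ± 0.22 for the SiO2-3TF-3C spleen and 4.81 ± 0.22 for normal liver. Of the 10 measured genes, these 2 passed 2-fold upward between the spleens and 0 passed it downward. The matching shares of all genes were 5.22% and 1.39%. In normal liver, Fcgrt, the neonatal Fc receptor, and Cd1d1, which shows lipids to natural killer T cells, were also higher than in SiO2 spleen, by 1.66 ± 0.20 and 1.58 ± 0.20. In the SiO2-3TF-3C spleen the same genes differed from SiO2 spleen by 0.34 ± 0.20 and -0.06 ± 0.20. Procr, the endothelial protein C receptor, was lower in normal liver, by -1.39 ± 0.20. The liver counts past 2-fold were thus 4 upward and 1 downward of 10, beside 15.1% and 16.7% of all genes. Since values were known when the list was drawn up, its counts describe these genes alone. Hfe, a regulator of iron uptake, differed by -0.19 ± 0.20 for the SiO2-3TF-3C spleen and 0.10 ± 0.20 for normal liver. H60c and Mill1 were not well above background on any array.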
